A study of Homo sapiens with 6 samples.

Results

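The genes described here encode the membrane carriers that move amino acids into, out of and within human cells. They were taken from the probe annotation by name, as every gene of the solute carrier (SLC) families 1, 3, 6, 7, 36, 38 and 43 (the rule itself reads no measured value), and 58 of the 18417 genes measured were found. The measured values used here are intensities, on a linear scale, from 6 Affymetrix Human Gene ST arrays. Of these, 3 held RNA of MDA-MB-231 cells that had received the multi-kinase inhibitor EC-70124 at 500 nM for 24 h, and the other 3 held RNA of control MDA-MB-231 cells, whose vehicle is not named in the labels. Both groups were grown in the same serum-containing medium, and the samples of each group were independent according to the methods. MDA-MB-231 is one established human triple negative breast cancer line, so that all values come from a single genetic background. The p-values set the difference between the groups against the spread among the 3 samples within each group.

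Amino acid carriers differ in what they carry and how they are driven. Some pull amino acids inwards with sodium or protons (SLC1, SLC6, SLC36, SLC38), whereas others swap one amino acid for another across the membrane (most SLC7 light chains, held at the cell surface by an SLC3 heavy chain). In proliferating cancer cells, glutamine, leucine and cystine enter mainly through a few of them, and the transcription of several is known to rise when the kinases that phosphorylate eIF2alpha raise the translation of ATF4. The families also hold carriers of other substrates, since SLC6A2, SLC6A3 and SLC6A4 take up monoamines, SLC6A8 takes up creatine and SLC6A6 takes up taurine.

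The labelled line was checked with marker genes. VIM, CD44, CAV1, MET, EGFR and ANXA1, which mark mesenchymal triple negative lines, had intensities between 3304 and 15368, each of the 6 lay above the median of all genes, and 3 of them (CD44, MET and EGFR) passed as lower in treated cells. Of 6 genes that mark luminal or receptor-positive lines, ESR1, PGR, EPCAM and CDH1 lay below that median, with ESR1 and PGR between 149 and 233, while ERBB2 and CLDN4 lay above it. CDH1 passed as higher (log2 fold change 0.19) and CLDN4 as lower (-1.03). None of the 4 leukocyte, 3 endothelial and 2 astrocyte markers measured passed the test. Among 4 neuronal markers 1 passed, the synaptic vesicle gene SYT1, which rose in treated cells (log2 fold change 1.45, standard error, SE, 0.12, limma adjusted p = 6.7e-05). With SYT1, the summed intensity of these 4 markers ran from 3668 to 4716 in EC-70124 arrays and from 2335 to 2538 in control arrays, and its part in the changes of the transporters was not tested. In RNA of a whole culture, a change in the share of cells that express a gene and a change per cell cannot be told apart.

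Treatment with EC-70124 up-regulated 13 of the 58 transporter genes and down-regulated 5, with 40 below the threshold. The threshold was a Benjamini-Hochberg adjusted p under 0.05 in the moderated test of limma, with the adjustment made across the 18417 genes. Of all genes, 34.5% were called, 19.7% up and 14.8% down. Of the transporters, 22.4% rose and 8.62% fell, so that over all 58 the share of rises was close to the background. Without the dimmest 30% of genes, 11 of 28 transporters rose and 3 fell, where 3446 of 12892 genes rose and 2702 fell. This difference was not tested. The median log2 fold change (EC-70124 minus control) of the transporters was 0.00075, and that of all genes was -0.0045. The rises reached at least 2-fold in 2 genes, SLC1A4 and SLC3A2, and no fall reached 2-fold. In 18 transporters, or 31.0%, all 3 treated arrays lay above all 3 control arrays, and in 12, or 20.7%, all lay below, where 25.6% and 22.0% of all genes did so. The balance of rises and falls depends on scaling. Quantile normalization reversed its direction for all genes, but not for the transporters. With cyclic loess 13 transporters rose and 5 fell. After quantile normalization 12 transporters rose and 10 fell with a median log2 fold change of -0.033, where 16.9% of all genes rose and 19.2% fell. Of all genes called after that step, 46.9% were rises, in comparison with 57.2% with the deposited scaling. The count of falls also dropped to 3 when EC-70124 replicate 1, EC-70124 replicate 2, control replicate 2 or control replicate 3 was left out.

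**Figure D1:**
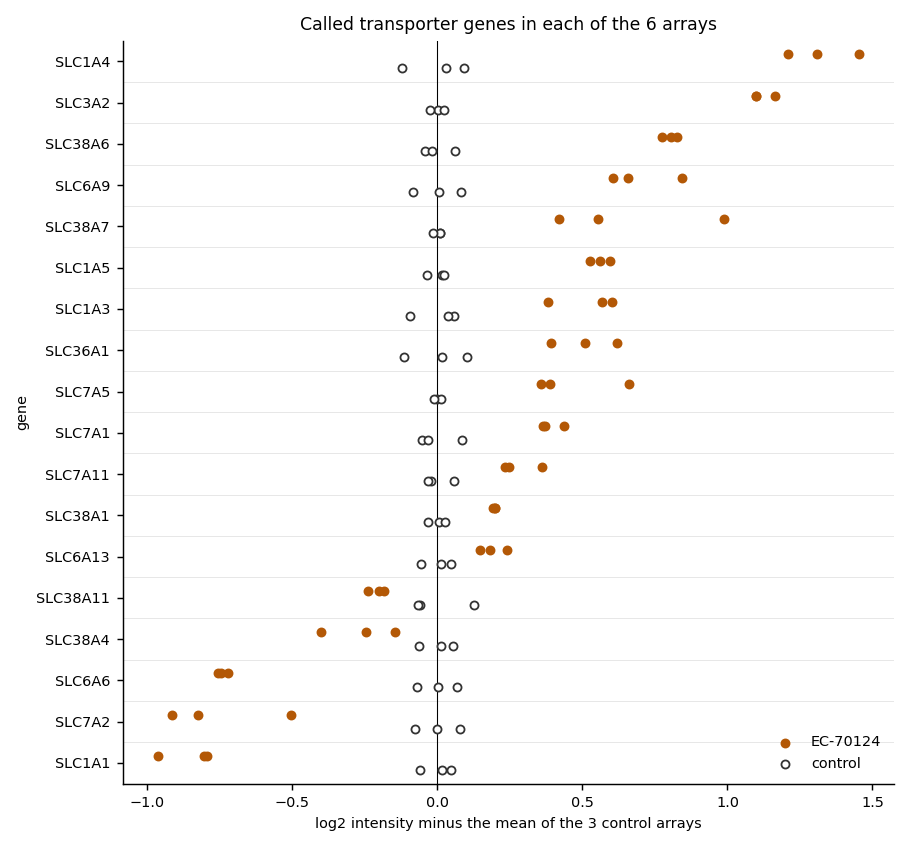
Log2 intensity of the 18 called transporter genes in each array, minus the mean of the 3 control arrays (x axis), by gene (y axis). Filled points are the 3 EC-70124 arrays and open points the 3 control arrays, and the groups do not overlap for any of the 18 genes. The third EC-70124 array is the far right point of SLC38A7, at an intensity of 1046.

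The DNA before the start of these genes was examined because several of the transporters are textbook targets of ATF4 and of NRF2. RefSeq (GRCh38.p14) gave the bases upstream of 67 start sites for 45 of the 58 transporters, 15 of the 18 called genes among them. Those without an entry were SLC1A2, SLC38A3, SLC3A1, SLC6A12, SLC6A15, SLC6A2, SLC6A3, SLC6A6, SLC7A11, SLC7A13, SLC7A2, SLC7A3 and SLC7A4. The 250 bases before each start were searched on both strands for the letters TGATGNAA, the core of the composite C/EBP-ATF site that ATF4 binds, and TGACNNNGC, the core of the antioxidant response element that NRF2 binds. The first occurred in 2 of the 12 up-regulated genes with an entry, in none of the 3 that fell and in none of the 30 that were not called, with 3.89% of all 27305 genes holding it. The second occurred in 4 of 12, 0 of 3 and 2 of 30, with 13.2% of all genes holding it. Of the 45 transporters with an entry, 2 (4.44%) hold the first and 6 (13.3%) the second, close to the shares of all genes. The 12 up-regulated genes have 22 start sites in the table, the 30 that were not called 42 and all 27305 genes 35116. More starts per gene give more chances of a match, which these shares do not correct for. A match is a description of letters, not of a bound site.
The promoter of SLC7A1 is shown in full because its gene has a single start in the table, and that of SLC1A3 because its outermost start holds the ATF4 letters. The other matches, in called genes and in genes that were not called alike, are shown as the 30 bases around each, and capitals mark the match.
SLC7A1, chr13:29595689-29595938, minus strand: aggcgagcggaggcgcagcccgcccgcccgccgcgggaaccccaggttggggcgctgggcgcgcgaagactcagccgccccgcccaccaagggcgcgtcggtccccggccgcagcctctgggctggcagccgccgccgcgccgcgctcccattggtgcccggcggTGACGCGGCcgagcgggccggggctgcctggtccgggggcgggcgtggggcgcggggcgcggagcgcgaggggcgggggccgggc
SLC1A3, chr5:36596338-36596587, plus strand: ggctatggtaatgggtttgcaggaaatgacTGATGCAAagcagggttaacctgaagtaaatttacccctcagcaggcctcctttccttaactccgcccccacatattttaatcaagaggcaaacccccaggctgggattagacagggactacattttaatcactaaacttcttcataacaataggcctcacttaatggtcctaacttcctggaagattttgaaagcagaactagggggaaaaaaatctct
SLC1A3, chr5:36606400-36606429, plus strand: gacagtgaacTGACAAAGCgtgaaagtggt
SLC3A2, chr11:62881652-62881681, plus strand: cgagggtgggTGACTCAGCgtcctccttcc
SLC1A5, chr19:46784893-46784922, minus strand: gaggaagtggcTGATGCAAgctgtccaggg
SLC1A5, chr19:46787385-46787414, minus strand: cctggatcttGCGAGGTCAgctcccgctcc
SLC7A7 (not called), chr14:22819860-22819889, minus strand: cctctgggtcTGACCAGGCagtcccagctc
SLC7A6 (not called), chr16:68264319-68264348, plus strand: gctcgagcccTGACGAGGCagctgggggct
SLC7A6 (not called), chr16:68264487-68264516, plus strand: cggcggcgggTGACGTGGCggggcggggcc
In SLC3A2 the match starts 37 bases before 1 of 3 listed starts of the gene. In SLC1A5 the matches lie before 2 different inner starts, 97 and 111 bases upstream, and the second is on the opposite strand. The strongest riser, SLC1A4, had neither set of letters before either of its 2 starts, nor had SLC7A5, SLC38A6 and SLC6A9 before theirs. Bases outside these windows, such as those after a start, were not searched, so a lack of letters here says nothing about sites elsewhere.

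SLC3A2, the heavy chain that carries 6 of the SLC7 light chains to the plasma membrane, was induced. Its probe set 7940717 on chromosome 11 had intensities of 10604, 11100 and 10596 in EC-70124 replicates 1, 2 and 3, against 4959, 5022 and 4867 in control replicates 1, 2 and 3. Every treated array was thus more than 2-fold above every control array, and the spread within a group was small. The log2 fold change was 1.12 (SE 0.05, limma adjusted p = 6.4e-06). SLC3A1, the heavy chain of the kidney and gut cystine carrier, had intensities of 176, 226 and 210 in treated arrays and 211, 209 and 191 in control arrays, with overlapping groups and a log2 fold change of -0.0022 (95% interval -0.23 to 0.22).

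The light chains, which form the transport path itself, moved less. Of 8, 2 rose, none fell and 6 did not pass. SLC7A5 (LAT1), which exchanges glutamine for leucine and other large neutral amino acids, had intensities of 5297, 5420 and 6544 in EC-70124 arrays and 4137, 4170 and 4108 in control arrays. The third treated array stood above the first 2, and all 3 were above the controls. Its log2 fold change was 0.47 (SE 0.08, limma adjusted p = 0.00309). SLC7A11 (xCT), which exports glutamate and imports cystine for glutathione synthesis, had 6469, 6524 and 7058 in EC-70124 arrays and 5411, 5371 and 5725 in control arrays. This was a small rise without overlap, with a log2 fold change of 0.28 (SE 0.06, limma adjusted p = 0.00744). SLC7A6, which exchanges cationic for neutral amino acids, had 2922, 2898 and 3322 in treated cells and 2485, 2788 and 2674 in control cells, a log2 fold change of 0.20 that did not pass (limma adjusted p = 0.0740). The groups of SLC7A6 did not overlap, but their nearest arrays were 2898 and 2788. It passed in the fit with an intensity trend (limma adjusted p = 0.0405). The other 5 light chains, SLC7A7, SLC7A8, SLC7A9, SLC7A10 and SLC7A13, had log2 fold changes between -0.12 and 0.03, and their groups overlapped. These were dim, with mean control intensities from 66.9 for SLC7A13 to 590 for SLC7A10, below the median of all genes, 765.

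The change of the heavy chain was set against that of each of its 6 light chains within each array, a comparison chosen after the values had been seen. The log2 ratio of SLC3A2 to SLC7A5 was higher by 0.74, 0.78 and 0.44 in the 3 EC-70124 arrays, relative to the control mean, and lay between -0.01 and 0.01 in the 3 control arrays. The corresponding shift for SLC7A11 was 0.87, 0.92 and 0.74 in treated arrays, and -0.08 to 0.06 in control arrays. Over the 6 pairs the mean shift ran from 0.65 for SLC7A5 to 1.24 for SLC7A8, with treated arrays above control arrays in each pair. The dim light chains SLC7A7, SLC7A8 and SLC7A10 hardly changed themselves. Their shifts of 1.12, 1.24 and 1.17 thus mostly restate the log2 fold change of SLC3A2, 1.12. An exact permutation test gave p = 0.1 for each of the 6 pairs, the lowest value that 3 against 3 arrays allow. The shifts are therefore given as a description only. The pairs were chosen with the values known and share the same SLC3A2 values, and intensities of different probe sets give no order of abundance.

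**Figure D2:**
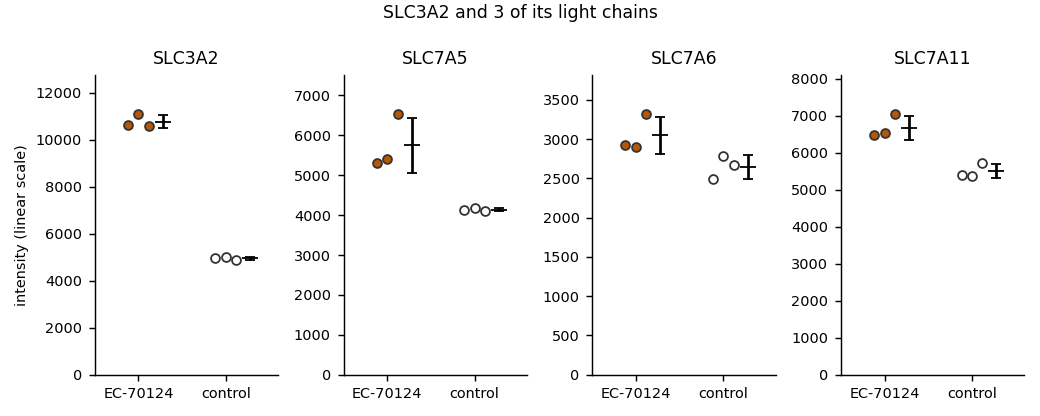
Intensity on a linear scale (y axis) of SLC3A2, SLC7A5, SLC7A6 and SLC7A11, each in its own panel, in 3 EC-70124 arrays (filled) and 3 control arrays (open), with mean and SD beside the points. The mean of SLC3A2 was 10767 in treated and 4949 in control arrays, and SLC7A5 has 1 treated array, at 6544, above the other two.

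The cationic amino acid carriers of SLC7, which work without a heavy chain and take up arginine, lysine and ornithine, had 1 rise and 1 fall among 5 genes. Since 19.7% of all genes rose and 14.8% fell, counts in so small a group are not read as its trait. The same holds for the counts in the other groups. SLC7A1, the broadly expressed member, rose. It had 3893, 3905 and 4085 in EC-70124 arrays and 2916, 3204 and 2957 in control arrays, with no overlap and a log2 fold change of 0.39 (SE 0.06, limma adjusted p = 0.00134). SLC7A2, the inducible member that supplies arginine to nitric oxide synthase in macrophages, fell. Its intensities were 736, 783 and 978 in EC-70124 arrays, against 1389, 1466 and 1316 in control arrays, a log2 fold change of -0.75 (SE 0.11, limma adjusted p = 8.8e-04). The third treated array of SLC7A2 lay between the other treated arrays and the controls. SLC7A4, for which transport has not been shown, had 396, 373 and 341 in treated and 341, 304 and 325 in control arrays, with adjacent groups and a log2 fold change of 0.19 (limma adjusted p = 0.0790), and it passed without EC-70124 replicate 3 (limma adjusted p = 0.0243). SLC7A3 did not pass, with a log2 fold change of 0.12. SLC7A14, an arginine carrier of lysosomes, has 2 probe sets that differ in direction. The one used had 253, 215 and 218 in EC-70124 arrays and 214, 238 and 204 in control arrays (log2 fold change 0.06), and the other had 172, 156 and 165 in EC-70124 arrays and 171, 168 and 182 in control arrays (-0.08). The groups overlapped in both, and neither passed.

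Both neutral amino acid exchangers of SLC1 were induced. SLC1A4 (ASCT1), which exchanges alanine, serine, cysteine and threonine, showed the largest rise of the 58 genes. Its probe set 8042310 on chromosome 2 had 838, 782 and 927 in EC-70124 arrays and 361, 345 and 311 in control arrays, and the lowest treated array was more than 2-fold above the highest control. The log2 fold change was 1.32 (95% interval 1.13 to 1.52, limma adjusted p = 1.9e-05). SLC1A5 (ASCT2), which brings glutamine into tumor cells, had 5141, 5273 and 5402 in EC-70124 arrays and 3486, 3608 and 3626 in control arrays. The groups were tight and well separated, with a log2 fold change of 0.56 (SE 0.05, limma adjusted p = 1.1e-04). A second probe set of SLC1A5 had a log2 fold change of 0.36 and also passed, with an adjusted p of 0.0162 from limma over all 33252 probe sets.

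Among the 5 glutamate transporters of the same family, 1 rose and 1 fell, beside 19.7% and 14.8% of all genes. SLC1A1 (EAAT3), which takes up glutamate, aspartate and cysteine, had the largest fall of the 58 genes. It had 602, 599 and 536 in EC-70124 arrays and 1003, 1080 and 1056 in control arrays, with no overlap and a log2 fold change of -0.86 (95% interval -1.01 to -0.70, limma adjusted p = 4.5e-05). SLC1A3 (EAAT1), the carrier of glia that also supplies aspartate to tumor cells, had 288, 281 and 247 in EC-70124 arrays and 198, 195 and 178 in control arrays. All its values lay in the lower part of the intensity range, and treated and control arrays did not overlap (log2 fold change 0.52, SE 0.08, limma adjusted p = 0.00118). SLC1A2, SLC1A6 and SLC1A7 had log2 fold changes of -0.07, -0.03 and 0.09, and none passed.

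The 12 genes of SLC38, sodium-coupled carriers of glutamine and other neutral amino acids, had 3 rises and 2 falls. SLC38A6, whose substrates are not settled, had 1606, 1571 and 1629 in EC-70124 arrays and 894, 958 and 908 in control arrays. These are narrow, well separated groups, with a log2 fold change of 0.80 (SE 0.05, limma adjusted p = 2.5e-05). SLC38A7, a carrier of glutamine and asparagine at the lysosome, had 776, 706 and 1046 in EC-70124 arrays, against 531, 531 and 522 in control arrays. The third treated array was the highest, and all 3 lay above the controls. The log2 fold change was 0.65 (SE 0.13, limma adjusted p = 0.00526), and 0.49 without EC-70124 replicate 3.
SLC38A1, SLC38A2 and SLC38A4 are neighbours on chromosome 12 and make up system A, the sodium-driven uptake of alanine and glutamine. Of the 3, SLC38A1 passed as higher, SLC38A4 as lower and SLC38A2 did not pass. SLC38A1 had 10217, 10210 and 10170 in EC-70124 arrays and 8710, 8936 and 9072 in control arrays, a small rise (log2 fold change 0.20, SE 0.05, limma adjusted p = 0.0172) that did not pass without EC-70124 replicate 1, EC-70124 replicate 2, control replicate 1 or control replicate 2 (log2 fold change 0.18 to 0.20). SLC38A2, known for its induction when amino acids are scarce, had 11356, 11547 and 10451 in EC-70124 arrays and 12278, 12236 and 12537 in control arrays. All 3 treated arrays of SLC38A2 were below the controls, but the log2 fold change of -0.15 (95% interval -0.29 to -0.02) did not pass (limma adjusted p = 0.0817). It passed as a fall after quantile normalization (limma adjusted p = 0.0477) and with an intensity trend (limma adjusted p = 0.00930). SLC38A4 had 166, 149 and 178 in EC-70124 arrays and 188, 198 and 204 in control arrays, a log2 fold change of -0.26 (limma adjusted p = 0.0272) that did not pass without EC-70124 replicate 1, EC-70124 replicate 2, control replicate 2 or control replicate 3 (log2 fold change -0.27 to -0.20).
SLC38A11, of unknown substrate, had 170, 174 and 177 in treated and 193, 191 and 219 in control arrays, a log2 fold change of -0.21 (limma adjusted p = 0.0441). This call was close to the threshold and was lost under 10 of 13 alternatives, including cyclic loess (limma adjusted p = 0.0508), an offset of 50 (0.0573), an intensity trend (0.0666) and the removal of any single array (log2 fold change -0.24 to -0.15). SLC38A3 and SLC38A12 had log2 fold changes of -0.14 and -0.13, which passed only after quantile normalization (limma adjusted p = 0.0482 and 0.0352). SLC38A9, the arginine sensor of the lysosome, had a log2 fold change of 0.05, SLC38A10 of 0.12, SLC38A5 of 0.0018 and SLC38A8 of -0.04, and none passed.

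The proton-driven carriers of SLC36 had 1 rise among 4 genes. SLC36A1, which exports small amino acids from lysosomes, had 2268, 2089 and 2448 in EC-70124 arrays and 1470, 1709 and 1611 in control arrays. The arrays of each group were spread, but did not overlap (log2 fold change 0.51, SE 0.08, limma adjusted p = 0.00172). SLC36A4 had 3330, 3519 and 3441 in treated cells and 3524, 3580 and 3782 in control cells, with groups that nearly met and a log2 fold change of -0.08 (limma adjusted p = 0.323). SLC36A2, the next gene to SLC36A1, had a log2 fold change of 0.02. SLC36A3 had treated intensities from 86 to 146 and a log2 fold change of -0.25 with the widest interval of all 58 genes (-0.65 to 0.16). Without EC-70124 replicate 3 it was -0.45 and passed (limma adjusted p = 0.0217). The facilitated carriers SLC43A1 and SLC43A2, which move large neutral amino acids, had log2 fold changes of 0.02 and 0.11 and did not pass. SLC43A1 had 1658, 1591 and 1181 in treated arrays, so that the third treated array stood below all controls, which ran from 1355 to 1563.

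Of the 18 SLC6 genes, whose products are driven by sodium, 2 rose and 1 fell. SLC6A9 (GlyT1), which takes up glycine, had 695, 720 and 819 in EC-70124 arrays and 483, 458 and 431 in control arrays. Treated arrays were all higher, with a log2 fold change of 0.70 (SE 0.08, limma adjusted p = 2.6e-04), whereas the neuronal glycine carrier SLC6A5 had -0.07 (limma adjusted p = 0.369). SLC6A6, the taurine transporter, had 3686, 3780 and 3716 in EC-70124 arrays, against 5938, 6241 and 6524 in control arrays. The treated arrays were nearly equal and well below the controls (log2 fold change -0.74, SE 0.06, limma adjusted p = 4.3e-05). SLC6A13, a carrier of GABA and taurine, had 332, 311 and 319 in EC-70124 arrays and 283, 270 and 290 in control arrays, a small rise (log2 fold change 0.19, limma adjusted p = 0.0336) in the lower part of the intensity range. It did not pass after quantile normalization (limma adjusted p = 0.0572) or with an intensity trend (0.0564), nor without EC-70124 replicate 1, EC-70124 replicate 2, control replicate 1 or control replicate 2 (log2 fold change 0.16 to 0.21). SLC6A12, its neighbour on chromosome 12, had -0.04.
The creatine transporter SLC6A8 had a log2 fold change of -0.16 that did not pass (limma adjusted p = 0.164), and -0.24 after quantile normalization, where it did (limma adjusted p = 0.0429). The gene has near-identical copies, so that its signal can be shared with theirs. None of the 3 monoamine transporters passed, with log2 fold changes from -0.04 to 0.07. None of the 8 remaining genes, carriers of neutral amino acids and orphans, passed either, with values from -0.19 for SLC6A16 to 0.06 for SLC6A18. SLC6A16 passed as a fall after quantile normalization and cyclic loess (limma adjusted p = 0.0403 and 0.0459).

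**Figure D3:**
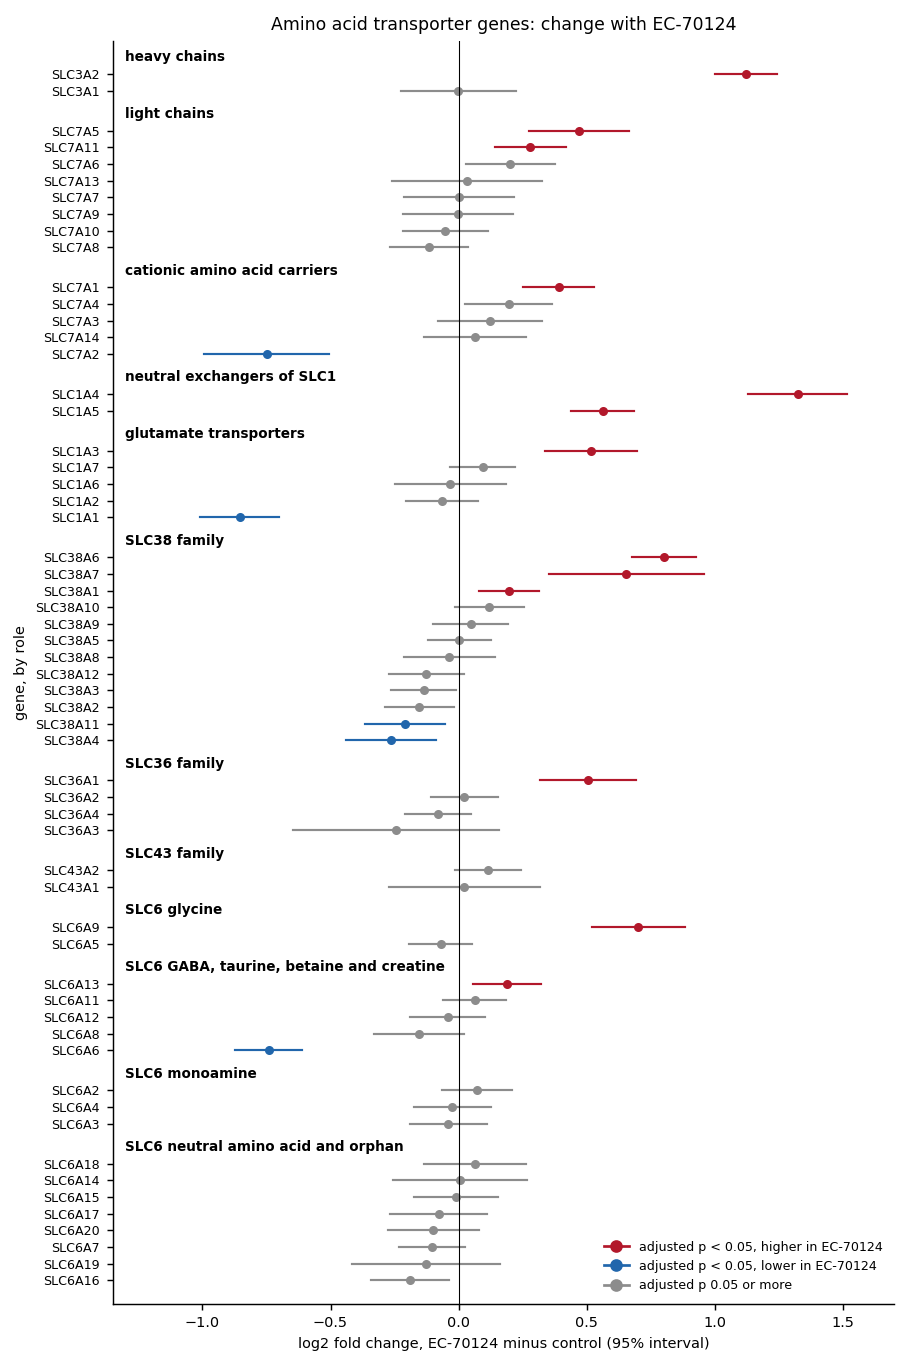
Log2 fold change, EC-70124 minus control (x axis), of each of the 58 transporter genes with its 95% interval, by role (y axis). Red genes passed as higher and blue genes as lower at an adjusted p under 0.05, and gray genes did not pass. The values run from -0.86 for SLC1A1 to 1.32 for SLC1A4, and several groups hold both a red and a blue gene.

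Of the 20 transporters with a mean intensity above the median of all genes, 765, 11 were called, and of the 38 below it, 7 were called. The shares of all genes called on each side of that median were not computed. Brighter genes were called more often in general. With the dimmest 30% left out, 3446 of 12892 genes rose and 2702 fell, against 3631 and 2722 of all 18417. The difference by intensity is therefore not read as a trait of the transporters. Whether the dim genes are expressed at all cannot be read from these values, which carry no measure of background. Among the 40 genes that were not called, the median size of the log2 fold change was 0.07. In 39 of these 40 the 95% interval lay within a 1.5-fold change in either direction, and SLC36A3 was the exception. The median standard error was 0.07 for the transporters and 0.07 for all genes. The third EC-70124 array was the one farthest from its group's median in 10 of the 18 called genes, the second in 5 and the first in 3. Without that array 14 transporters rose and 5 fell.

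**Figure D4:**
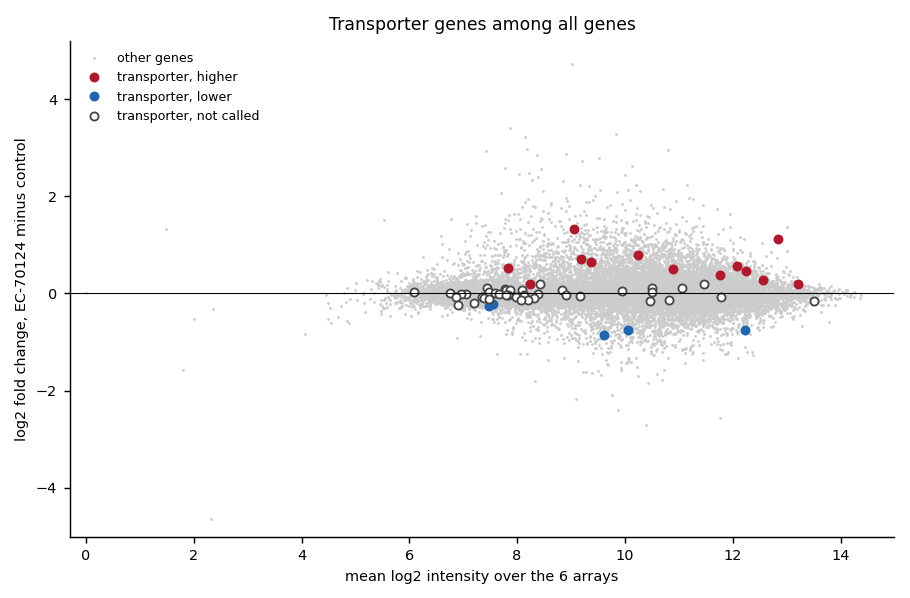
Log2 fold change, EC-70124 minus control (y axis), against the mean log2 intensity over the 6 arrays (x axis) for 18417 genes in gray and the 58 transporters as larger points. The 13 red points passed as higher, the 5 blue points as lower, and the 40 open points did not pass and lie close to zero, many of them at low intensity.

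The transporters were set beside the 271 other genes named as solute carriers, which carry ions, sugars, nucleosides and other solutes. Of these, 37, or 13.7%, rose and 47, or 17.3%, fell, with a median log2 fold change of -0.03, in comparison with 22.4% and 8.62% of the amino acid transporters. This difference was not tested. Among the 271 genes, 1 rise and 4 falls were 2-fold or larger. Of 22 further amino acid and peptide carriers measured, outside the 7 families, 4 (18.2%) rose and 3 (13.6%) fell. The lysosomal cystine exporter CTNS rose (log2 fold change 1.02, limma adjusted p = 6.1e-04), as did the mitochondrial glycine carrier SLC25A38 (0.54). SLC17A5, which exports sialic acid from lysosomes and carries acidic amino acids, fell (-1.22, limma adjusted p = 9.1e-05). The aspartate and glutamate carrier of mitochondria SLC25A12 rose by 0.45 on the log2 scale.

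Of 33 genes measured that sense amino acids or act in control of the growth kinase complex mTORC1, 11 (33.3%) rose and 8 (24.2%) fell. The list includes MTOR and RPTOR, which are subunits of that complex. Of all genes, 19.7% rose and 14.8% fell. SESN2, which binds leucine and is itself a target of ATF4, had 2135 ± 386 in EC-70124 arrays and 561 ± 47.9 in control arrays (SD, n = 3 each), a log2 fold change of 1.92. CASTOR1, which binds arginine, had 505 ± 37.8 in EC-70124 arrays and 1295 ± 23.0 in control arrays (SD, n = 3 each), a log2 fold change of -1.36. RRAGB, one of the Rag GTPases that recruit mTORC1 to the lysosome, rose (1.08), and ITFG2, a subunit of a complex that restrains mTORC1, rose too (0.82).
Of 18 regulators of the integrated stress response, the pathway from eIF2alpha kinases to ATF4, 10 (55.6%) rose and 3 (16.7%) fell, beside the same 19.7% and 14.8% of all genes. ATF4 itself had 7083, 6705 and 6559 in EC-70124 arrays and 4974, 5025 and 4845 in control arrays, a log2 fold change of 0.45 (limma adjusted p = 4.1e-04). The transcription factors DDIT3 and ATF3 had 2.24 and 2.12, the phosphatase subunit PPP1R15A 1.63 and the pseudokinase TRIB3 1.57. The mRNA of the eIF2alpha kinase EIF2AK3 (PERK) fell by 0.53 on the log2 scale and that of EIF2AK4 (GCN2), which senses uncharged transfer RNA, fell by 0.29. This list was known from earlier results of these arrays to hold many rises.
Of 14 genes of cystine use and glutathione turnover, 4 (28.6%) rose and 4 (28.6%) fell. CHAC1 and CHAC2, which degrade glutathione, had log2 fold changes of 2.95 and 1.37, CTH, which makes cysteine from cystathionine, 1.56, and the thioredoxin reductase TXNRD1 -0.48. The enzyme that limits glutathione synthesis, GCLC, had 1872 ± 93.2 in EC-70124 arrays and 1879 ± 43.8 in control arrays (SD, n = 3 each). Of 19 enzymes of glutamine, glutamate, asparagine, proline and arginine, 3 (15.8%) rose and 4 (21.1%) fell, with log2 fold changes of 1.74 for asparagine synthetase (ASNS), 0.76 for ASNSD1, -0.64 for the arginase ARG2 and -0.53 for the proline synthesis enzyme ALDH18A1.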

How the data were processed

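Per the methods, the authors hybridized RNA to Affymetrix Human Gene ST arrays, used dChip to normalize the probes of all arrays by rank invariance between pairs, and then summarized each probe set with its model-based index. The deposited values are these intensities, on a linear scale, with array medians of 437 to 460.1. Which dChip version and background correction were used is not given in the sources used here. Values under 1 were raised to 1 before log2 was taken. Of 33252 probe sets, 19460 carry 1 gene symbol in the platform annotation, 1754 several and 12038 none. Each of 18417 genes was represented by its single-symbol probe set with the highest mean over the 6 arrays. The 2-sided test was that of limma 3.58.1 (lmFit, then eBayes; R 4.3.3), over all genes, adjusted by the Benjamini-Hochberg method at 0.05. The fit was tested on simulated data. The labels give the groups, 3 arrays each, and this number limits the precision. Probe-level background was not analysed here.

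The transporters and companion lists were chosen with earlier results of these data known. Every called transporter is named. Values in every array are given for the called genes, the 3 brightest that did not pass, the SLC3 genes and those with disagreeing probe sets. In each companion list up to 4 genes are named, those past the threshold with the greatest change. The heavy and light chain pairs, SLC7A4, SLC43A1, ATF4, EIF2AK3, EIF2AK4 and GCLC were chosen after their values were seen. The alternatives were 2 other scalings (quantile, cyclic loess), a filter on the 30% dimmest genes, the median over probe sets and 50 added before log2. Further alternatives were a robust fit with an intensity trend, a Welch t-test per gene, a block on the replicate number, and each array left out in turn. The methods name a t-test only as the score of the gene-set analysis, not as a test of single genes.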

Additional observations from a re-analysis of the deposited data

How the results depend on the processing

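No called transporter changed direction under any of the alternatives run. Of the 18 called genes, 11 passed under every alternative in which they were tested. The other 7 each lost the call under 1 or more. SLC7A5, SLC7A2 and SLC38A7 lost it only with the Welch t-test, under which 10 transporters rose and 2 fell. SLC38A1 lost it only when single arrays were left out, and SLC38A4, SLC38A11 and SLC6A13 lost it with that t-test and with single arrays left out. SLC38A11 also lost it with cyclic loess, an offset of 50 and an intensity trend, and SLC6A13 also after quantile normalization and with an intensity trend. The single-array losses involved no other gene. The dimmest 30% of genes hold 30 of the 58 transporters. Without them 11 of 28 rose and 3 fell, with a median of 0.12. The falls no longer counted, SLC38A4 and SLC38A11, were themselves among the removed genes. After quantile normalization the falls numbered 10 and the median was -0.033. The cause of these 10 falls and of the shifts in the median was not tested. Over the settings that leave out 1 array, rises ran from 11 to 14, falls from 3 to 5 and the median from -0.020 to 0.028.

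For all genes the Welch t-test called 1962 rises and 1280 falls, for the other solute carriers 16 and 20, and for the amino acid sensing list 7 and 3. Falls in the integrated stress response list numbered 5 with cyclic loess, without the dimmest genes, with an offset of 50 and with an intensity trend. Falls in the cystine and glutathione list numbered 0 with the Welch t-test. Over the left-out arrays they numbered 3 without EC-70124 replicate 3 and 2 without any of the other 5. Falls among the glutamine to arginine enzymes numbered 7 after quantile normalization. Deviations from the group mean correlated with r of 0.13, -0.02 and 0.14 between same-numbered treated and control arrays. EC-70124 replicate 1 correlated best with control replicate 2 (0.15), and EC-70124 replicates 2 and 3 with control replicate 3 (0.05 and 0.14). Deviations within a group of 3 arrays depend on each other, so these values cannot settle whether same-numbered arrays were paired. With the replicate number as a block, 13 transporters rose and 5 fell, the same genes, and falls in the cystine and glutathione list numbered 2.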

Other observations

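Besides the probe sets used, 3 probe sets carry the name of an amino acid transporter together with other genes. One is shared by SLC43A3, a carrier of purine bases, and PRG2. It had intensities of 5425, 5745 and 6546 in EC-70124 arrays and 5092, 5450 and 5263 in control arrays, with overlapping groups and a log2 fold change of 0.16 (limma adjusted p = 0.234 over all probe sets). The other two are shared by the creatine transporter SLC6A8 and its copies SLC6A10P and SLC6A10PB. They had log2 fold changes of -0.28 and -0.28, with limma adjusted p = 0.0472 and 0.0481 over all probe sets, and their treated arrays lay below all controls. The probe set of SLC6A8 alone had -0.16 and did not pass.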
